A study of Mus musculus with 4 samples.

Results

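The Hox genes of the 4 mouse clusters (a, b, c and d) were followed through the stromal cells of mouse long bones. Their members were the rows of the count matrices whose symbol was Hox, a cluster letter and a number from 1 to 13, without antisense names, which gave 39 of 27998 genes. Hox genes encode homeodomain transcription factors that give cells a position along the body axis and along the limb. Within a cluster the genes lie in order, those at the 3′ end (low numbers) acting toward the head and those at the 5′ end (high numbers) toward the tail and the tip of the limb, and genes of the same number in different clusters are called a paralogue group. In the hindlimb, genes of group 10 pattern the thigh segment, group 11 the shin segment and group 13 the foot. Mature stromal cells and fibroblasts keep much of such a code. Hox proteins bind DNA together with TALE homeodomain cofactors of the Pbx, Meis and Pknox families.

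Cells were sorted from crushed femora and tibiae of C57BL/6 mice after collagenase digestion, as cells without CD45, TER119 and CD31 and with CD140a and CD51, and were sequenced with 10x 3′ chemistry, which counts molecules by unique molecular identifiers (UMIs). Levels are given as CPM, the UMIs of a gene per 1000000 UMIs of the summed cells. The 4 libraries form 2 pairs: the wild-type library WT_A1 with NHD13Tg, a line with a transgene for the fusion of Nup98 and HoxD13, and the wild-type library Control with Abcg2-MDS/AML, a model named after Abcg2, myelodysplastic syndrome and acute myeloid leukaemia. Where 4 values are given for a gene, they follow the order WT_A1, NHD13Tg, Control, Abcg2-MDS/AML. The NHD13 transgene is known to be driven by Vav regulatory elements, which act in blood cells, and no label gives the age or number of mice. Each group had 1 library, so differences within a pair have no replicate check and no p-value, and counting intervals (95%) cover counting error only.

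The matrices held between 36133716 and 46033790 UMIs per library, and 21483 barcodes passed as cells (4973, 5766, 5158 and 5586). Cells were typed by marker genes that hold no Hox gene. MSC here are marrow reticular cells rich in Adipoq, Lepr and Esm1, osteoblasts are rich in osteocalcin (Bglap, Bglap2), chondrocytes in type IX collagen, and fibroblasts in Dpt, Clec3b and Col14a1. The 3 thinnest sums rest on few cells, the chondrocytes of WT_A1 (4 cells) and NHD13Tg (6) and the osteoblasts of Abcg2-MDS/AML (8). The 10 MSC markers summed to 8837 CPM in MSC of Abcg2-MDS/AML against 32807 to 37243 in the other 3 libraries. Cells meeting none of the rules made up 42.4%, 34.3%, 54.7% and 69.9% of the libraries, and 60 cell barcodes occurred in more than 1 library.

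Hox UMIs came to 42171 over all cells, and 38 of 39 members had at least 1. The exception, Hoxd12, had 0 UMIs. Another 7 members had 1 to 19 UMIs (Hoxb1, Hoxb5, Hoxb8, Hoxb9, Hoxb13, Hoxc12 and Hoxd1), and 11 had at least 1000. Hoxc10, of the group that patterns the thigh segment, led with 1998, 1820, 3214 and 1476 UMIs, and Hoxc9, Hoxa10, Hoxa9 and Hoxc8 followed. Hoxd13, whose human counterpart is part of the NHD13 fusion, had 10, 21, 4 and 8 UMIs in all cells, and 16 of the 21 in NHD13Tg lay in cells outside the 4 types. The sort left few blood cells, where that transgene acts. The 19 haematopoietic-marked cells of NHD13Tg held 0 Hoxd13 UMIs, which allows a share of up to 15.8% of such cells with a UMI, so these counts do not check the label.

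Summed over members, the Hox level in MSC was 395, 429, 481 and 412 CPM. Osteoblasts had 238, 237, 271 and 222, below the MSC of their own library in all 4. Fibroblasts had 279, 267, 519 and 301, with Control apart from the other 3, and chondrocytes had 431 in Control and 217 in Abcg2-MDS/AML. Barcodes of 1 to 100 UMIs, which hold RNA free in the suspension, had 282, 258, 277 and 223. That is as much as osteoblasts, as fibroblasts of WT_A1 and NHD13Tg and as chondrocytes of Abcg2-MDS/AML. The count of members whose free RNA level reached the level in cells was 8, 6, 13 and 6 in MSC, 19, 16, 23 and 23 in osteoblasts and 17, 16, 7 and 9 in fibroblasts. In chondrocytes it was 14 in Control and 22 in Abcg2-MDS/AML. Haematopoietic-marked cells were the comparison for a type that should hold little limb Hox RNA. In Control, where 439 such cells were caught, they had a Hox level of 10.9 CPM and 0.276 Hox UMIs per cell, against 1.93 per MSC. The few such cells of WT_A1 (16) and NHD13Tg (19) had more, 42.8 CPM (22.1 to 74.7) and 126 CPM (78.2 to 193), on 12 and 21 Hox UMIs, and stayed below the MSC of their library. They also held more RNA of the 10 MSC markers, 2107 and 2209 CPM against 50.7 in those of Control. In those of NHD13Tg, Hoxa9 held 7 of the 21 Hox UMIs (42.1 CPM), Hoxa7 and Hoxa5 3 each and Hoxc10 1 (6.02 CPM). In MSC of that library Hoxa9 and Hoxc10 were at 50.4 and 46.4 CPM. The parts of MSC RNA and of the cells' own RNA in these Hox levels were not tested. Abcg2-MDS/AML held 2 such cells and 1 Hox UMI.

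With every cell thinned to 2000 UMIs, a Hox UMI was found in 54.5%, 54.8%, 58.2% and 57.7% of MSC, and in 2.05% (95% Clopper-Pearson interval 0.942% to 3.86%) of the haematopoietic-marked cells of Control. Before thinning these shares were 77.5%, 78.3%, 75.4% and 72.0%, and 12.98%, with a median of 3253 to 4482 UMIs per MSC and 24248 per haematopoietic-marked cell. Detection in MSC therefore lay far above that in the haematopoietic-marked cells of Control at equal depth. In NHD13Tg 5 of the 19 haematopoietic-marked cells, or 26.3% (9.15% to 51.2%), had a Hox UMI when thinned and 63.2% unthinned, and in WT_A1 12.5% (1.55% to 38.3%) and 25.0%. Hoxa5 alone was found in 6.73% to 7.41% of thinned MSC.

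**Figure D1:**
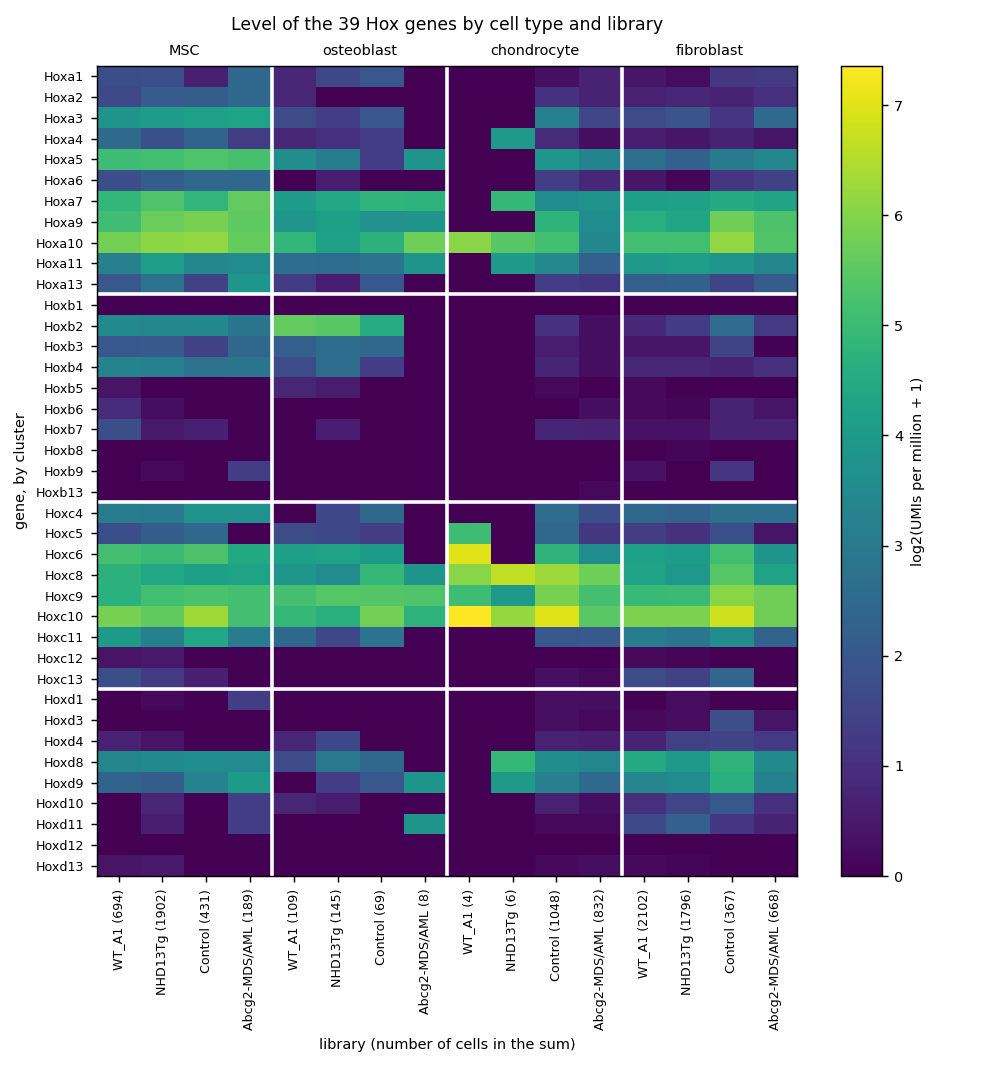
Level of each of the 39 Hox genes (rows, by cluster) in the summed cells of each type and library (columns, number of cells in brackets), as log2 of CPM plus 1. The rows of Hoxa10 and Hoxc10 are bright in MSC and fibroblasts of all 4 libraries, Hoxb2 is bright in osteoblasts, and most of the Hoxb and Hoxd rows are dark.

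The clusters contributed unequally. Genes of cluster a (11 members on chromosome 6, 52155367 to 52260880, GRCm38.p6 in RefSeq) held 47.0%, 55.7%, 49.0% and 57.0% of Hox UMIs in MSC, and those of cluster c (9 members, chromosome 15, 102921131 to 103036856) held 42.9%, 35.5%, 43.2% and 31.2%. Cluster d (9 members, chromosome 2, 74668225 to 74765142) held 12.4%, 12.5%, 11.5% and 7.42% in fibroblasts against 3.66%, 3.70%, 4.09% and 7.35% in MSC. Fibroblasts were above MSC in 4 of 4 libraries, with nearly equal shares in Abcg2-MDS/AML. Cluster b (10 members, chromosome 11, 96194316 to 96368254) held 22.4%, 22.8% and 10.6% of Hox UMIs in osteoblasts of WT_A1, NHD13Tg and Control, and 0% of 17 UMIs in the 8 osteoblasts of Abcg2-MDS/AML. In chondrocytes of Control and Abcg2-MDS/AML, cluster c held 69.2% and 68.3%.

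**Figure D2:**
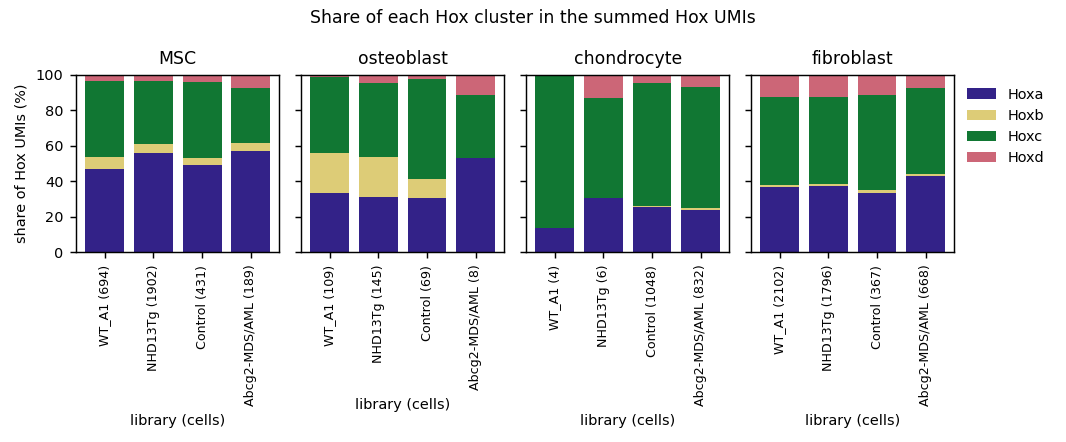
Share of the summed Hox UMIs (%) held by each Hox cluster, for 4 cell types and 4 libraries, with the number of cells in brackets. Cluster b takes a visible share in osteoblasts (22.4% in WT_A1) and cluster c the most in chondrocytes (69.2% in Control).

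Along the clusters, groups 9 to 13 held 66.8% to 70.3% of Hox UMIs in fibroblasts and 51.4% to 58.7% in MSC. Groups 1 to 4 held 11.6% to 14.3% in MSC and 3.90% to 5.62% in fibroblasts, so the ranges of the 4 libraries did not overlap. The share was not highest in MSC, since osteoblasts of WT_A1 and NHD13Tg held 24.3% and 26.0%. Osteoblasts of Control, with 27 of 180 UMIs, were also above their MSC, but the intervals overlapped (10.1% to 21.1% and 9.46% to 13.9%). The 8 osteoblasts of Abcg2-MDS/AML held 0 of 17 UMIs. Chondrocytes of Control and Abcg2-MDS/AML held 4.35% and 3.39%. Group 10 alone gave 28.2%, 26.4%, 30.8% and 20.6% of the Hox UMIs of MSC and 33.5%, 35.2%, 35.8% and 31.2% of those of fibroblasts, the latter above the former in each library. Group 13, of the foot, gave 0.481% to 3.31% in MSC and 1.12% to 2.19% in fibroblasts.

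Cell types were compared over the 4 libraries, with the library as a block, by edgeR's quasi-likelihood test on 16 summed profiles, each type against the mean of the other 3. Of the 39 members 16 passed the filter on low counts, and the other 23 were not tested. Values of log2 fold change are given with their standard error, and adjusted p-values are Benjamini-Hochberg over the 10232 genes tested. The p-values measure how differences between types vary over these 4 libraries, which come from 2 experiments and 3 genotypes. Differences between whole libraries are taken up by the block. The variation is pooled over all 4 types, with 9 residual degrees of freedom. In chondrocytes the Hox UMIs were 15, 23, 3636 and 2008, so nearly all came from the Abcg2 experiment.

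In MSC 9 members rose and 2 fell of 16 tested. Of all genes 22.0% rose and 15.5% fell. The median log2 fold change was 0.75 over the tested members and 0.02 over all genes. The members with the largest rise were Hoxb4, Hoxa3, Hoxa5 and Hoxc4. Hoxb4, which is known for expanding blood stem cells when forced on in them, was at 8.72, 7.98, 5.79 and 6.05 CPM in MSC and at no more than 5.10 in any sum of the other 3 types. It rose by 2.34 ± 0.30 on the log2 scale (adjusted p = 3.89e-06, higher in 4 of 4 libraries). Hoxa3, a gene of pharyngeal and neck patterning, was at 12.9, 15.5, 17.4 and 18.2 in MSC, against 8.18 in chondrocytes of Control, the highest sum of the other 3 types. In the haematopoietic-marked cells of NHD13Tg, Hoxb4 and Hoxa3 were at 12.0 CPM each, on 2 UMIs. Hoxa3 rose in MSC by 2.05 ± 0.31 (adjusted p = 2.66e-05, 4 of 4 libraries).

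Hoxa5, a gene that patterns the chest skeleton and lung, was at 32.8, 33.7, 39.4 and 36.3 CPM in MSC, 11.1, 7.65, 1.51 and 13.1 in osteoblasts, and 5.45, 3.81, 7.37 and 9.49 in fibroblasts. All 4 MSC values lay above every value of the other types, and free RNA had 6.56 to 9.90. The rise was 1.82 ± 0.24 (adjusted p = 5.56e-06). Hoxc4 was at 7.52, 7.24, 12.7 and 12.1 in MSC, each above the other types of its library, and rose by 1.24 ± 0.29 (adjusted p = 0.00181). The other 5 members that rose in MSC were Hoxc11, Hoxb2, Hoxa9, Hoxa10 and Hoxa7, by 0.70 to 1.18. Hoxb2 did so although its mean level, 8.92, was below the 10.2 of the other types, since the osteoblast mean was 28.0, and with sums of at least 20 cells it missed the test (adjusted p = 0.0535). Hoxa10 and Hoxc10 had the highest mean levels in MSC, at 55.0, 66.2, 70.6 and 48.4 and at 56.2, 46.4, 77.6 and 34.8. Hoxa9 was above Hoxc10 in NHD13Tg (50.4), and Hoxa7 (46.9), Hoxa9 (45.4) and Hoxa5 were in Abcg2-MDS/AML.

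Hoxc8 and Hoxc9, from the middle of cluster c, fell in MSC, by 0.69 ± 0.23 (adjusted p = 0.0240) and 0.65 ± 0.20 (adjusted p = 0.0141). Leaving out Control ended both calls (adjusted p = 0.166 and 0.101), as leaving out Abcg2-MDS/AML did for Hoxc8 (0.0585) and WT_A1 for Hoxc9 (0.0894). With the 3 sums under 20 cells left out, 11 members rose and 3 fell of 22 tested in MSC. Of all genes 22.3% rose and 18.9% fell in that setting. Without NHD13Tg the count of members called in MSC was 7 in place of 11.

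RefSeq promoters (GRCm38.p6) were found for 22 of the 39 members. Those of Hoxa3 (chr6:52213018-52213317, minus strand) and Hoxa5 (chr6:52204538-52204837, minus strand) are shown because these genes of cluster a both rose in MSC, 5′ to 3′, from 250 bases before the start to 50 after it, with capitals for the motif matches. The motifs searched on both strands were the CCAAT box (CCAAT), a site of Meis and Pknox (TGACAG) and a joint site of Pbx and Hox (TGATTNAT). Each of these 2 promoters held a single match, so none overlapped.
Hoxa3: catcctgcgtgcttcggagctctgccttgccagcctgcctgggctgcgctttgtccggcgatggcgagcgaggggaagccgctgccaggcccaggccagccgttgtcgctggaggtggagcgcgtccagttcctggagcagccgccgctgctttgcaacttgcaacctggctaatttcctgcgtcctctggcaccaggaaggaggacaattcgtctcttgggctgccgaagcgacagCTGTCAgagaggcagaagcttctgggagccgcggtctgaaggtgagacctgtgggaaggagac
Hoxa5: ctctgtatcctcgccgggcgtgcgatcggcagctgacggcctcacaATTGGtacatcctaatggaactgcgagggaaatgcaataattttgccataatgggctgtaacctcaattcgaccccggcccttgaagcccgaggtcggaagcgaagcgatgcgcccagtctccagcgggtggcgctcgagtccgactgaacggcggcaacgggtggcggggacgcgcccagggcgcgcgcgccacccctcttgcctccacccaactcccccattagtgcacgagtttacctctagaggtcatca
Hoxa3 held 1 TGACAG match, which 19.2% of the 32851 promoters of 300 bases hold, and Hoxa5 held 1 CCAAT match, which 37.4% hold. The CpG count was 20 for Hoxa3 and 29 for Hoxa5, against a median of 7 over all promoters and 14.5 over the members.

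In osteoblasts 2 members rose and 3 fell of 16 tested, where 16.4% of all genes rose and 17.8% fell. Hoxb2, known for patterning the hindbrain, was at 46.7, 42.9 and 22.6 CPM in osteoblasts of WT_A1, NHD13Tg and Control. The other types of these 3 libraries held 0 to 10.2, and free RNA 4.36, 12.7 and 1.63, so the osteoblast values stood apart in all 3. In Abcg2-MDS/AML 0 Hoxb2 UMIs were counted in 8 osteoblasts, where 3 counts would be 39.2 CPM. Hoxb2 rose by 4.28 ± 0.37 (adjusted p = 2.42e-08), and by 4.36 with sums of at least 20 cells. In thinned cells 6.42%, 7.59% and 2.90% of osteoblasts had a Hoxb2 UMI, against 2.16%, 2.21% and 2.55% of MSC. The intervals overlap in WT_A1 and Control and lie apart in NHD13Tg (3.85% to 13.2% against 1.60% to 2.97%). Unthinned shares were 15.6%, 20.7% and 11.6% of osteoblasts, and 4.03%, 4.31% and 3.48% of MSC.

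Hoxb4 also rose in osteoblasts, by 1.41 ± 0.46 (adjusted p = 0.0235), on 3, 10, 1 and 0 UMIs. Its mean level in osteoblasts, 2.21 CPM, was below the 2.71 of the other types, since MSC were higher in 4 of 4 libraries, and the fit's positive sign comes from the log scale, where chondrocytes (0.232) and fibroblasts (0.771) were far lower. That call was lost without WT_A1 (adjusted p = 0.0705) and with sums of at least 20 cells (0.0549). Hoxc10 fell by 0.76 ± 0.19 (adjusted p = 0.00339), Hoxd8 by 1.18 ± 0.39 (adjusted p = 0.0240) and Hoxd9 by 1.79 ± 0.60 (adjusted p = 0.0250), on 3, 13, 3 and 0 UMIs for Hoxd8 and 0, 3, 2 and 1 for Hoxd9. Leaving out WT_A1 ended the calls of Hoxd8 (adjusted p = 0.184) and Hoxd9 (0.164), and leaving out NHD13Tg those of Hoxc10 (0.0617) and Hoxd9 (0.0806). Without Control, Hoxd9 was not called either (0.0729). Either WT_A1 or NHD13Tg left out lowered the number of members called in osteoblasts from 5 to 2. Hoxc9 had the highest mean level there, at 35.6, 41.3, 40.7 and 39.2 CPM, but led in no library. Hoxb2 was higher in WT_A1 (46.7) and NHD13Tg (42.9), Hoxc10 in Control (55.7) and Hoxa10 in Abcg2-MDS/AML (52.3, on 4 UMIs).

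In chondrocytes 2 members rose and 3 fell of 16 tested, where 14.0% of all genes rose and 16.2% fell. Hoxc8, whose forced expression is known to delay cartilage maturation, was at 76.5 CPM in chondrocytes of Control (645 UMIs) and 51.7 in Abcg2-MDS/AML (478 UMIs). No other type of these 2 libraries exceeded 41.8. The few chondrocytes of WT_A1 and NHD13Tg held 2 and 7 UMIs, or 65.1 and 100.1 CPM, also above the other types. Hoxc8 rose by 1.92 ± 0.25 (adjusted p = 8.91e-06, 4 of 4 libraries). In thinned cells a Hoxc8 UMI was found in 14.8% and 9.98% of chondrocytes of Control and Abcg2-MDS/AML and in 3.02% and 3.17% of their MSC, and unthinned in 38.9%, 36.9%, 5.80% and 4.76%.

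Hoxc10 was at 126 and 43.6 CPM in chondrocytes of Control and Abcg2-MDS/AML. Their fibroblasts held 112 and 52.9, so chondrocytes were lower than fibroblasts in Abcg2-MDS/AML. Hoxc10 rose by 0.86 ± 0.18 (adjusted p = 0.000921), a call that ended without Control (adjusted p = 0.0530). Hoxb2 fell by 2.99 ± 0.64 (adjusted p = 0.00129), Hoxb4 by 1.84 ± 0.56 (adjusted p = 0.0171) and Hoxa7 by 0.76 ± 0.24 (adjusted p = 0.0214). Hoxb2 and Hoxb4 were at 1.07 and 0.711 in Control, and both at 0.216 in Abcg2-MDS/AML, on 2 to 9 UMIs. The Hoxb4 call was lost without Abcg2-MDS/AML (adjusted p = 0.222), and that of Hoxa7 without WT_A1 (0.0511), Control (0.200) or Abcg2-MDS/AML (0.0503).

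In fibroblasts 3 members rose and 4 fell of 16 tested, where 17.4% of all genes rose and 13.7% fell. Hoxd9 and Hoxd8 are neighbours in cluster d, which is active in the early limb bud. Hoxd9 was at 9.24, 10.9, 24.6 and 8.47 CPM in fibroblasts and 4.21, 3.51, 8.68 and 15.1 in MSC, so fibroblasts were higher in the first 3 libraries and lower in Abcg2-MDS/AML, where MSC held 10 UMIs. It rose by 1.57 ± 0.30 (adjusted p = 0.000407). Hoxd8 was at 21.5, 14.6, 26.4 and 10.5 in fibroblasts and 9.32, 10.2, 11.0 and 10.6 in MSC, again with Abcg2-MDS/AML level, and rose by 0.94 ± 0.24 (adjusted p = 0.00428). Hoxa11, of the shin segment, was at 14.3, 16.2, 13.5 and 9.15 in fibroblasts and 8.12, 16.5, 9.84 and 10.6 in MSC. Fibroblasts were higher in WT_A1 and Control and slightly lower in NHD13Tg and Abcg2-MDS/AML. Free RNA had 9.81, 14.1, 8.41 and 7.78. Hoxa11 rose by 0.64 ± 0.21 (adjusted p = 0.0284). The highest mean levels in fibroblasts were those of Hoxc10, Hoxc9 and Hoxa10. Hoxc9 was at 29.8, 31.2, 65.1 and 53.5 CPM, and Hoxa10 at 34.0, 33.7, 70.0 and 40.0.

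The 4 members that fell in fibroblasts were Hoxb2 by 2.33 ± 0.45 (adjusted p = 0.000461), Hoxb4 by 1.90 ± 0.39 (adjusted p = 0.000759), Hoxa5 by 1.47 ± 0.28 (adjusted p = 0.000368) and Hoxc8 by 0.58 ± 0.21 (adjusted p = 0.0444). Hoxb4 was at 0.614 to 1.02 CPM in fibroblasts of the 4 libraries, on 1 to 10 UMIs. Without WT_A1 the calls of Hoxd8 (adjusted p = 0.0966), Hoxa11 (0.196) and Hoxc8 (0.243) ended, and without NHD13Tg those of Hoxa11 (0.126) and Hoxc8 (0.284), which also missed without Abcg2-MDS/AML (0.0974) and with sums of at least 20 cells (0.0746). Leaving out WT_A1 or NHD13Tg gave 4 members called in fibroblasts in place of 7. Sums of at least 20 cells gave 3 higher and 6 lower of 22 tested, where 17.5% of all genes were higher and 15.8% lower.

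Among the 23 contrasts of members named with values, 7 kept their call and direction under all 13 alternatives: Hoxa3 and Hoxa5 in MSC, Hoxb2 in osteoblasts, chondrocytes and fibroblasts, Hoxc8 in chondrocytes, and Hoxa5 in fibroblasts. Another 4 kept both wherever they were tested but fell under the filter on low counts elsewhere: Hoxb4 in MSC and fibroblasts under 5 alternatives, Hoxc4 in MSC under 2, and Hoxd9 in fibroblasts under 1, with thinned cells. With cells thinned to 2000 UMIs, calls ended for Hoxc9 in MSC (adjusted p = 0.0525), Hoxd8 and Hoxc10 in osteoblasts (0.566 and 0.346), Hoxc10 and Hoxa7 in chondrocytes (0.0737 and 0.105), and Hoxd8 and Hoxa11 in fibroblasts (0.0568 and 0.140). DESeq2 did not call Hoxc8 in MSC (0.0653) and fibroblasts (0.116) or Hoxb4 in osteoblasts (0.0975) and chondrocytes (0.0610).

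The promoters of the 2 cluster d genes that rose in fibroblasts, Hoxd8 (chr2:74704365-74704664) and Hoxd9 (chr2:74697513-74697812), both on the plus strand, are shown for comparison with those of Hoxa3 and Hoxa5.
Hoxd8: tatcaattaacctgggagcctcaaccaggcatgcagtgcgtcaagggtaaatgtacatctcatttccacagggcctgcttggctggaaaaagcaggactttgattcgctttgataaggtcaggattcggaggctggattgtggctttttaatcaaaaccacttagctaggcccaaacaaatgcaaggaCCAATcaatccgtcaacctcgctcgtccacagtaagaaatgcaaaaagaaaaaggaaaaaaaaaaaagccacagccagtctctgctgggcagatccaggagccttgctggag
Hoxd9: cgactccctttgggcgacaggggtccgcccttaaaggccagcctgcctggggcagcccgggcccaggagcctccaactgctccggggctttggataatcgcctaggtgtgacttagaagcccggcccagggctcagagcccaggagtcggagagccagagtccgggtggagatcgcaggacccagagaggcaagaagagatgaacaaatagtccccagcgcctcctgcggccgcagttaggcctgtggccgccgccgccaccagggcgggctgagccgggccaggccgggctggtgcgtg
Hoxd8 held 1 CCAAT match and 6 CpG, and Hoxd9 none of the 3 motifs and 20 CpG. TGATTNAT, which 3.22% of all promoters hold, was in 2 of the 24 promoter entries of the members and in none of these 4. A match describes letters in the window only.

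**Figure D3:**
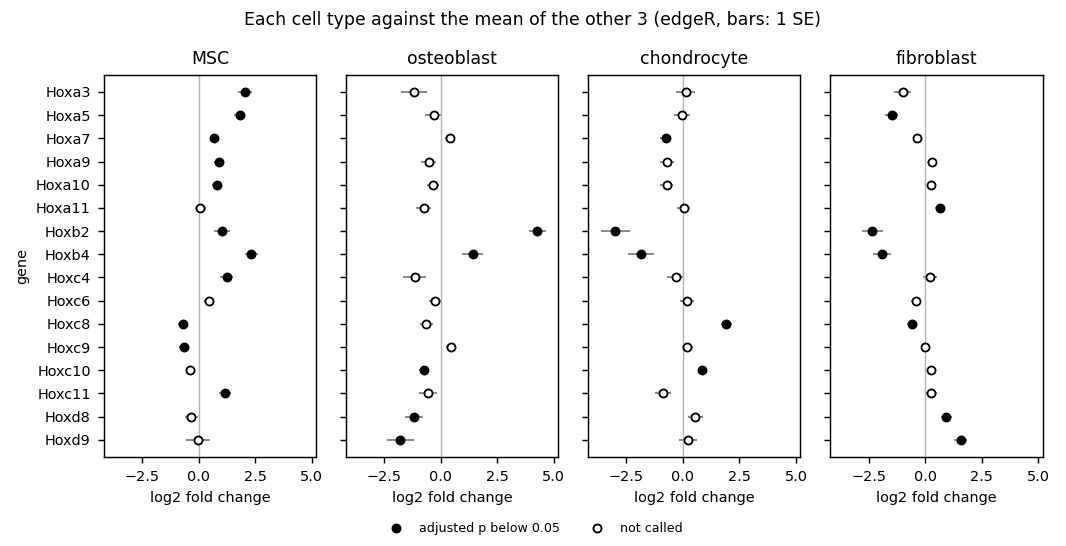
Log2 fold change of each tested Hox gene in 1 cell type against the mean of the other 3 (edgeR), with bars of 1 standard error and filled points for an adjusted p below 0.05. Hoxb2 is far right in osteoblasts (4.28) and left in chondrocytes (-2.99) and fibroblasts (-2.33).

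**Figure D4:**
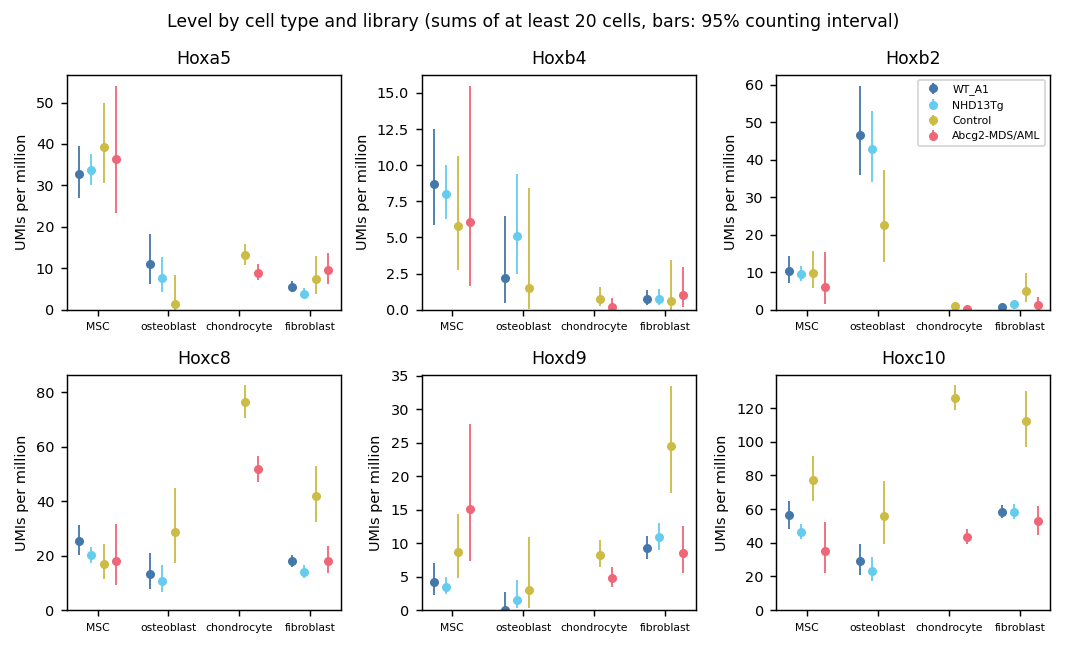
CPM of 6 Hox genes by cell type, 1 point per library in its own colour, with the 95% Poisson counting interval. Sums under 20 cells are left out. All 4 MSC points of Hoxa5 (32.8 to 39.4) lie above all points of the other types, and Control is the highest point of Hoxc10 in each type shown.

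Of 9 TALE cofactors, the partners of Hox proteins, 7 were tested. In MSC 5 of them rose and 0 fell, with a median log2 fold change of 0.78, where 22.0% of all genes rose and 15.5% fell, with a median of 0.02. In chondrocytes 0 rose and 4 fell, where 14.0% of all genes rose and 16.2% fell. Meis2 was at 62.3, 60.4, 61.9 and 45.4 CPM in MSC, where it rose by 1.23 ± 0.21 (adjusted p = 9.28e-05). In osteoblasts 1 cofactor rose (Meis3, by 1.27 ± 0.26, adjusted p = 0.000829) and 2 fell, and in fibroblasts 2 rose and 1 fell.

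Of 24 limb factors 16 were tested, with 10 higher and 5 lower in fibroblasts, 6 and 1 in MSC, 3 and 7 in osteoblasts and 4 and 5 in chondrocytes. Over all genes these shares were 17.4% and 13.7% in fibroblasts, 22.0% and 15.5% in MSC, 16.4% and 17.8% in osteoblasts, and 14.0% and 16.2% in chondrocytes. Pitx1, which gives the hindlimb its identity, was at 30.3, 30.8, 46.7 and 7.45 CPM in fibroblasts and 19.5, 25.1, 29.5 and 9.08 in MSC, and rose in fibroblasts by 0.74 ± 0.22 (adjusted p = 0.0133). It also rose in chondrocytes, by 1.04 ± 0.29 (adjusted p = 0.00971), and fell in osteoblasts, by 1.84 ± 0.34 (adjusted p = 0.000359). Tbx4, a hindlimb factor that acts with it, was at 10.2, 10.5, 13.5 and 14.2 in fibroblasts and 3.31, 1.70, 1.74 and 7.57 in MSC. It rose in fibroblasts by 2.34 ± 0.29 (adjusted p = 2.67e-06). Tbx5, its forelimb counterpart, was too low to be tested, at 9.32, 8.84, 1.16 and 1.51 in MSC and 2.84, 6.25, 3.07 and 2.37 in fibroblasts. In MSC Tbx5 lay above Tbx4 in WT_A1 and NHD13Tg and below it in Control and Abcg2-MDS/AML.

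Of 7 non-coding transcripts named for the Hox clusters 3 were tested. Hotairm1, which lies at the head end of cluster a, was at 63.8, 43.8, 85.7 and 63.6 CPM in MSC, where it rose by 1.03 ± 0.20 (adjusted p = 0.000362), and at 16.1, 10.5, 7.99 and 16.3 in fibroblasts, where it fell by 1.89 ± 0.23 (adjusted p = 1.75e-06). Hoxb3os rose in MSC and osteoblasts and fell in chondrocytes and fibroblasts, as Hoxb4 did. Genes that overlap on the same strand can share tags. Among members, exons of Hoxc5 overlap those of Hoxc10, and of Hoxd3 those of Hoxd4, on the same strand in the reference annotation (GENCODE M21). How the tags of these members were counted is therefore uncertain. Only same-strand overlap among members was looked at.

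Within the NHD13 pair, 54 combinations of a member and a type held at least 20 UMIs, and 2 were at least 2-fold apart with a counting interval leaving out 1, both higher in NHD13Tg. With at least 4000 UMIs per cell or with cells thinned, 1 was higher and 1 lower. Over all genes 1.71% of combinations were higher and 2.95% lower by this size rule, which is not a test. Hoxa11 was at 16.5 CPM in MSC of NHD13Tg (155 UMIs) and 8.12 in WT_A1 (27 UMIs), a log2 ratio of 1.001 (0.43 to 1.67). The ratio lay at the edge of the rule: it was 0.9988 without shared barcodes and 0.71 with cells thinned. Hoxd4 in fibroblasts was at 1.63 and 0.654 on 18 and 9 UMIs, a log2 ratio of 1.28 (0.09 to 2.65). The summed Hox level differed by 0.12 (0.03 to 0.21) on the log2 scale in MSC, -0.01 (-0.21 to 0.20) in osteoblasts and -0.07 (-0.14 to 0.00) in fibroblasts.

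Within the Abcg2 pair, 0 of 50 combinations were higher and 16 lower in Abcg2-MDS/AML, where over all genes 5.2% were higher and 14.2% lower. Of the 16, 8 of 17 considered lay in chondrocytes, 6 of 13 in fibroblasts and 2 of 15 in MSC, and the share of all genes lower in these types was 19.6%, 12.6% and 11.7%. The median log2 ratio of the members considered was -0.98 in chondrocytes, -0.81 in fibroblasts and -0.07 in MSC, against -0.38, -0.21 and -0.12 over all genes. In chondrocytes Hoxa10 was at 9.84 against 34.3 CPM in Control, a log2 ratio of -1.79 (-2.16 to -1.46). Hoxa3 was at 1.95 against 8.18 (-2.04, -2.91 to -1.31), and Hoxc10 at 43.6 against 126 (-1.53, -1.70 to -1.37). Hoxc5, Hoxa11, Hoxa9, Hoxc6 and Hoxc4 (Hoxa9 and Hoxc6 with equal counts, 101 against 223 UMIs) lay between -1.76 and -1.08, while Hoxa7 was at 12.8 against 11.0 CPM.

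In fibroblasts of the Abcg2 pair Hoxd9 was at 8.47 against 24.6 CPM (log2 ratio -1.53, -2.32 to -0.78), and Hoxc11, Hoxc6, Hoxd8, Hoxc8 and Hoxc10 lay between -1.42 and -1.09. In MSC Hoxc10 was at 34.8 against 77.6 (-1.13, -1.86 to -0.51), and Hoxc11 held 5 against 35 UMIs (-1.30, -3.13 to -0.06). Control was the highest library in fibroblasts for all 6 of these members, but not for Hoxa11. Hoxc10 was at 58.5, 58.4, 112 and 52.9 CPM in the 4 libraries, and Hoxc6 at 17.6, 15.3, 33.8 and 12.9, with WT_A1 and NHD13Tg near Abcg2-MDS/AML. Hoxd8 differed, at 21.5, 14.6, 26.4 and 10.5, with WT_A1 nearer to Control. In the cells of none of the types Hoxc10 was at 63.4, 57.2, 116 and 50.3, with the same library on top.

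The summed Hox level of chondrocytes was lower by 0.99 on the log2 scale (-1.07 to -0.91) in Abcg2-MDS/AML, that of fibroblasts by 0.78 (-0.92 to -0.65) and that of MSC by 0.22 (-0.43 to -0.02). Thinned to equal depth, 56.0% of chondrocytes in Control and 35.9% in Abcg2-MDS/AML had a Hox UMI, and 91.4% and 82.3% unthinned. Chondrocytes of the 2 libraries also differed in depth, with a median of 7210 UMIs per cell in Control and 10861 in Abcg2-MDS/AML, and in the 8 chondrocyte markers, which summed to 36725 and 18116 CPM. The part of these differences in the Hox levels was not tested. In fibroblasts, the 7 fibroblast markers summed to 3793, 4260, 3463 and 2886 CPM over the 4 libraries, the 6 tenocyte markers to 1292, 852, 2295 and 490, and the 8 chondrocyte markers to 258, 199, 1491 and 203. The tenocyte and chondrocyte sums were highest in Control, as the Hox sum of fibroblasts was. In MSC the chondrocyte markers summed to 198, 79.8, 1305 and 301, again highest in Control. Their part was not tested either.

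No member passed the size rule in the same type and direction in both pairs. Fitted over both pairs with the experiment as a term (edgeR, 1 residual degree of freedom per type), 0 of 63 tested combinations of a member and a type were called between models and controls, where 0.141% of all combinations were called. An unadjusted p below 0.05 was found for 2 of the 63 by edgeR and 0 by DESeq2, which also called 0. Between the Abcg2 and the NHD13 experiment 0 of 63 were called, against 0.376% of all, with 6 under an unadjusted 0.05 by edgeR and 2 by DESeq2, which called 0. In this comparison the experiment cannot be told apart from sex, day or dissection.

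**Figure D5:**
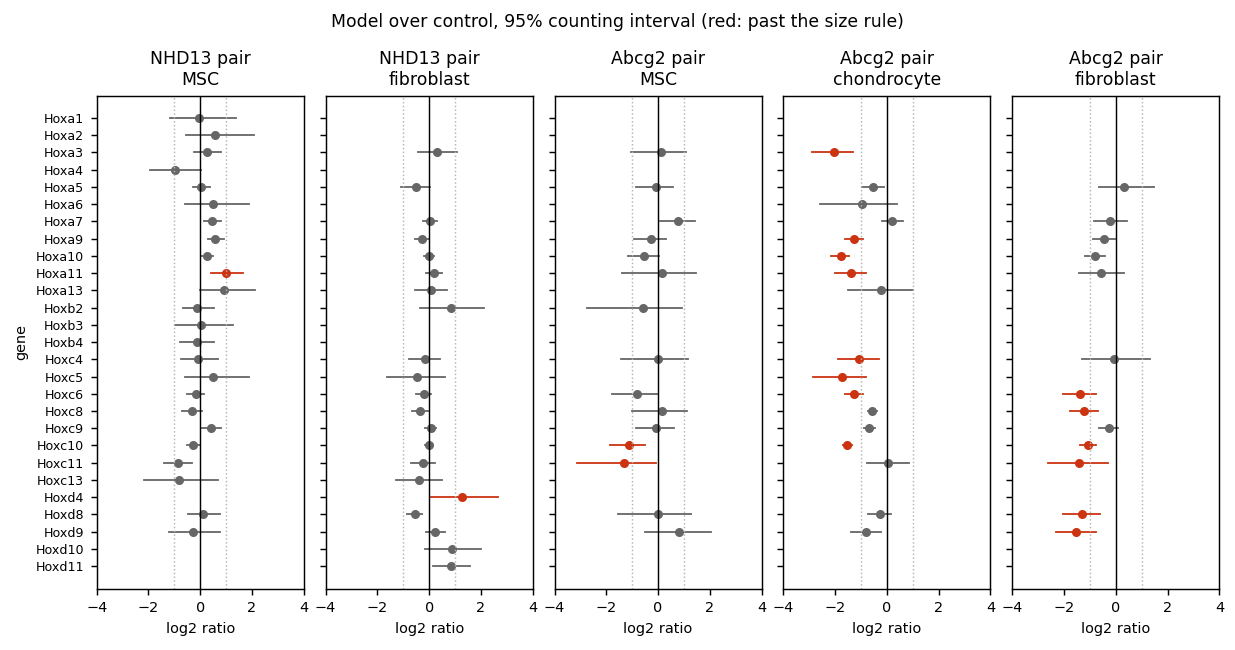
Log2 ratio of model over control for each Hox gene with at least 20 UMIs, with its 95% counting interval, in 5 combinations of pair and type. Points past the size rule are red. In chondrocytes of the Abcg2 pair 8 genes lie below -1, while in MSC of the NHD13 pair Hoxa11 alone is red, at 1.001.

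Co-detection of group 11 genes in single cells was too sparse to describe. Of the 54 and 50 thinned fibroblasts of WT_A1 and NHD13Tg with a Hoxa11 UMI, 1 and 2 also had a Hoxd11 UMI, and in MSC of NHD13Tg 0 of 54 did.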

How the data were processed

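UMI counts per gene and barcode were deposited by the authors as raw whole-number matrices, not restricted to cells, and the submitters' processing notes name Cell Ranger 3.1.0 and Seurat 3.2.3. Which genome build was used is not given in the sources used here. Barcodes with at least 2000 UMIs, at least 500 genes and at most 10% mitochondrial UMIs were taken as cells, with types from summed markers per 10000 UMIs (MSC 10, osteoblast 100, chondrocyte 15, fibroblast 8, haematopoietic 10 with none of the 4). Cells could pass several rules (62, 78, 19 and 17 did), and no doublet caller was run. UMIs were summed per library and type and tested with edgeR 4.0.16 (filterByExpr, TMM, quasi-likelihood, Benjamini-Hochberg at 0.05) in R 4.3.3; DESeq2 1.42.0 was an alternative. Ratios within pairs added 0.5 to each count and carry exact conditional binomial intervals. Levels (CPM) have no length correction, as each 3′ tag counts a molecule. The type fit was tested on simulated data. Members and lists were chosen with earlier results of these data known. Members with values were drawn from the 3 highest per type, up to 4 called per direction and contrast, and those past the size rule. Not all values of each are printed. Members and Tbx5 named outside that rule were chosen after their values were seen. Nothing says whether a library pooled several mice.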

Additional observations from a re-analysis of the deposited data

Results flagged for a closer look

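Cells that met none of the 4 type rules entered no comparison, and 2 members were higher there than in every type with at least 20 cells in all 4 libraries. Hoxa11 was at 17.3, 18.1, 16.7 and 12.6 CPM in the libraries, in the order used above, with a mean of 16.2. Hoxd10, of the group that patterns the thigh segment, was at 3.28, 3.95, 4.44 and 2.69, with a mean of 3.59. Tenocyte markers summed to 1992, 1647, 1517 and 1268 CPM in these cells, and osteoblast markers to 11494, 13638, 9883 and 4127. Their part in the levels was not tested.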

How the results depend on the processing

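Members called in MSC, osteoblasts, chondrocytes and fibroblasts (11, 5, 5 and 7) came to 7, 1, 3 and 3 with cells thinned to 2000 UMIs. With no filter on low counts 17 were called in MSC and 14 in fibroblasts, and with marker thresholds doubled 3 in chondrocytes. Without the filter more members and more genes were tested. The share of all genes called under these alternatives is not given here, so these counts of members have no background beside them. Leaving out 1 library gave 7 to 10 in MSC, 2 to 7 in osteoblasts, 4 to 5 in chondrocytes and 4 to 7 in fibroblasts. The 2 combinations of the NHD13 pair became 1 with 1000 UMIs per cell, without shared barcodes, with at least 50 UMIs or with free RNA below both levels, 4 with doubled thresholds and 5 (4 higher, 1 lower) at a fold of 1.5. They stayed 2 in number, but as 1 higher and 1 lower, with at least 4000 UMIs per cell and with thinning. The 16 of the Abcg2 pair became 10 when thinned and 10 with free RNA below both levels. Hoxc11 in MSC of that pair reversed to a log2 ratio of 0.0121 with at least 4000 UMIs per cell. The causes were not tested. Over the alternatives that gave a value, the named contrasts between types kept direction and call in 232 values and direction alone in 43. The named ratios within pairs passed the size rule in 148 values and missed it in 24 beside the reversal. Both tests over the 2 pairs called 0 members under every alternative run. Depth limits what the 23 untested members can show.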
